A study of Homo sapiens with 4 samples.

Results

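The secretory and absorptive differentiation products examined here are 10 genes: the mucins MUC2, MUC5AC, MUC1 and MUC13, the trefoil factors TFF1, TFF2 and TFF3, the enteroendocrine granule protein CHGA, and the enterocyte products ANPEP and FABP1. They were named as products of goblet, enteroendocrine and absorptive cells, by a rule that uses no measured value but with earlier results of these data known, and were matched to the deposited values through their Ensembl gene identifiers in GENCODE v29. Values were used for 9 of the 10 genes, among 19729 genes in all, and MUC2 was not analysed here. Of the 9 genes, 7 were above 0 in at least 1 library, and 2 reached the mean value of 10 above which genes were tested.

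RNA came from HT-29, a microsatellite-stable colorectal cancer cell line that carries BRAF-V600E and a mutant APC gene. The cells had been transduced with lentivirus to express, from a doxycycline (DOX)-inducible vector, either an shRNA against APC or a non-silencing shRNA (NonS), and were used at low passage after transduction. Every library, NonS included, came from cells given 500 ng/ml DOX for 72 h. There were 2 libraries of each condition, numbered I and II and described as biological duplicates, so p-values measure only the spread between these duplicates of 1 cell line. APC restrains Wnt signaling by taking part in the breakdown of β-catenin, and the comparison asks which genes differ when the remaining APC is silenced. APC itself had NonS values of 3 and 0 and an APC shRNA value of 0 in both replicates. Its values were thus near 0 throughout, overlapped between conditions, and did not check the labels.

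Each deposited value is a whole number per gene and library, treated here as a score of unstated scale. The libraries summed to between 398338 and 413595 and had between 12051 and 12320 genes above 0. Read depth is unknown, so no counting interval or detection limit is given, and a gene at 0 is only said to be listed at 0. Of 12 markers of colonic epithelium, 12 were above 0 in at least 1 library. Of these, 5 had both APC shRNA values below both NonS values and 3 had both above. Among all 12799 genes above 0, 19.1% lay below in this way and 25.9% above. Of the 8 epithelial markers tested, 1 (LGALS4, described with the colonocyte list) was called lower and 0 higher by limma. Over all 5376 genes tested, 3.70% were called lower and 4.33% higher. The median log2(value + 1) difference of the 8 markers was 0.05. KRT18, an epithelial keratin with the highest mean of these markers, had NonS values of 1550 and 1796 and APC shRNA values of 2061 and 2083. CEACAM5, an adhesion molecule of colonic epithelium picked after its values were seen, went the other way at 10 and 11 against 3 and 3. All 6 endothelial markers and 7 of 8 fibroblast markers were listed at 0 in every library, and the summed fibroblast value was 0 to 1. Of 8 leukocyte markers 6 were listed at 0. The summed leukocyte value was 8 and 10 in NonS against 4 and 5 in APC shRNA libraries, all of it from CD68 and CD14, and its part in the results was not tested.

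Goblet cells line the colon with mucus. Its scaffold is built of gel-forming mucins, large proteins whose repeated serine and threonine stretches are covered with O-linked glycans. MUC2 is the gel-forming mucin of the intestine and MUC5AC that of the gastric surface, whereas MUC1 and MUC13 span the cell membrane and form part of the glycocalyx. Trefoil factors are small secreted peptides that are released with mucins and help to restore a damaged epithelium. TFF3 is typical of intestinal goblet cells, TFF1 of gastric surface cells and TFF2 of gastric gland mucous cells. Chromogranin A, encoded by CHGA, packs hormone granules of enteroendocrine cells. ANPEP encodes aminopeptidase N, a brush border enzyme that trims peptides, and FABP1 encodes a fatty acid-binding protein of enterocytes and liver.

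The trefoil factors are named after a cysteine-rich domain, which TFF1 and TFF3 carry as a single copy and TFF2 as a pair. The coding stretches from the first to the sixth cysteine of that domain, read from GENCODE v29 transcripts (GRCh38) in the sense direction, are shown because all the trefoil factor genes had lower values in the APC shRNA libraries and because short reads of related genes could be misassigned. Capitals mark the cysteine codons.
TFF1: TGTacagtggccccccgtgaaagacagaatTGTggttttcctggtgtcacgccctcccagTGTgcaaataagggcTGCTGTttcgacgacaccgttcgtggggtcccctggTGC
TFF2 domain 1: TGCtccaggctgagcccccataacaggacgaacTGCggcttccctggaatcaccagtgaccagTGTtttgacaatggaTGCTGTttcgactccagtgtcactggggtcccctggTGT
TFF2 domain 2: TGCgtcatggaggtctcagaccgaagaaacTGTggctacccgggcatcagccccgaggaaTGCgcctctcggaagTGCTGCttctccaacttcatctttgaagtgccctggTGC
TFF3: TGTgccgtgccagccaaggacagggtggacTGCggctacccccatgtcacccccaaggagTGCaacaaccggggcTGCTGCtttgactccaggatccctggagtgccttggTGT
Each stretch holds 6 cysteine codons, of which the fourth and the fifth are adjacent. Over 114 compared bases, identity ranged from 50% between the domains of TFF2 to 64.9% between TFF1 and the first domain of TFF2. That first domain is 117 bases long and was compared by its last 114 without gaps, so its first cysteine codon was left out. TFF1 and TFF3 were 59.6% identical. Despite this relatedness, none of the 502, 688 and 1060 stretches of 50 bases (the read length) in the longest transcripts of TFF1, TFF2 and TFF3 occurred in another gene's transcripts. The trefoil values can therefore be read gene by gene as far as exact 50-base matches go.

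The trefoil factor genes lie side by side on the minus strand of chromosome 21 (GRCh38), TFF3 at 42311667 to 42315651, TFF2 at 42346357 to 42351128 and TFF1 at 42362282 to 42366594. TFF3 had the highest values of the family. It was listed at 19 and 17 in NonS I and II, against 12 and 9 in APC shRNA I and II. Both APC shRNA values lay below both NonS values, at 10.5 ± 2.12 against 18 ± 1.41 (SD, n = 2 each), a ratio of NonS to APC shRNA of 1.71. On the log2(value + 1) scale the difference was -0.73 with a standard error of 0.17, which did not pass the test (adjusted p = 0.0927 by limma with Benjamini-Hochberg adjustment over 5376 genes).

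TFF1 had NonS values of 6 and 11 and APC shRNA values of 1 and 2. The groups did not overlap, and the means were 8.5 ± 3.54 and 1.5 ± 0.707 (SD, n = 2 each). The ratio of NonS to APC shRNA was 5.67, which rounding to whole numbers alone leaves anywhere between 4 and 9. TFF2 had NonS values of 3 and 5 and APC shRNA values of 1 and 2, again without overlap, a ratio of 2.67 that rounding leaves between 1.75 and 4.5. Both genes had a mean under 10 and were not part of the main test. In a wider fit, of all genes whose values summed to 1 or more, the log2(value + 1) differences were -1.90 for TFF1 (standard error 0.44) and -1.0 for TFF2 (standard error 0.37). Neither passed the test there, with a limma adjusted p of 0.143 for TFF1 and 0.255 for TFF2. At values this low, rounding can tie or separate replicates, so this fit cannot settle whether either gene differs. The added 1 makes these differences smaller than the ratios of the values.

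MUC13 had the highest values of the mucins in the set, and they did not separate the conditions. MUC13 (chromosome 3, 124905442 to 124953819, minus strand) had NonS values of 29 and 32 and APC shRNA values of 31 and 28. The groups overlapped, and the means were 30.5 ± 2.12 and 29.5 ± 2.12 (SD, n = 2 each). The difference was -0.05 on the log2(value + 1) scale with a standard error of 0.09 and did not pass the limma test (adjusted p = 0.739). Its sign turned when NonS II or APC shRNA II was left out, with 0.02 in either case, so no direction is given for this gene.

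MUC5AC (chromosome 11, 1157953 to 1201138, plus strand) had NonS values of 3 and 4 and an APC shRNA value of 1 in both replicates. The groups did not overlap, and the ratio of NonS to APC shRNA was 3.5, between 2 and 8 when rounding is allowed for. With a mean of 2.25 it was not part of the main test. In the wider fit its log2(value + 1) difference was -1.16 with a standard error of 0.14, and the limma adjusted p was 0.0612. Its tied APC shRNA values, rounded to 1, help to make that standard error small. In the same fit CA2, at 1 and 1 in NonS against 0 and 0 in APC shRNA libraries, had a limma adjusted p of 0.000106. The adjusted p of MUC5AC in the wider fit therefore cannot settle whether this gene differs. Of the 50-base stretches of its longest transcript, 21.4% recurred within the transcript itself, and 66 (0.379%) also occurred in MUC5B, which was listed at 0 in every library. MUC1 (chromosome 1, 155185824 to 155192916, minus strand) was listed at 1 in each of the 4 libraries, so its values did not separate the conditions. Here 42.4% of the 50-base stretches recurred within the transcript, and 48 exonic bases overlap another gene on the same strand. How reads of such repeats were counted bears on the level of both mucins and is not given in the sources used here.

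The enteroendocrine and enterocyte products were at or near 0. CHGA (chromosome 14, 92923080 to 92935293, plus strand) and ANPEP (chromosome 15, 89784889 to 89815401, minus strand) were listed at 0 in all 4 libraries. FABP1 (chromosome 2, 88122982 to 88128116, minus strand) was listed at 1 in NonS II and at 0 in the other libraries. No comparison between conditions can be drawn from these genes at the resolution of whole numbers.

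In this set, 4 of the 7 genes above 0 (TFF1, TFF2, TFF3 and MUC5AC) had both APC shRNA values below both NonS values, and 0 had both above. Among all 12799 genes above 0 in at least 1 library, 19.1% lay below in this way and 25.9% above. None of these values, taken alone, can reach significance by an exact permutation test of 2 libraries against 2, whose smallest two-sided p is 0.333, the value obtained for each of these 4 genes. Of the 2 genes tested by limma (TFF3 and MUC13), 0 were called in either direction. Of the 5376 genes tested, 3.70% were called lower and 4.33% higher in APC shRNA libraries at an adjusted p under 0.05, and no gene had an adjusted p below 0.0423. At an unadjusted limma p under 0.05 there were 1912 genes, TFF3 among them (unadjusted p = 0.0208 by limma) and MUC13 not. In bulk RNA, fewer cells making a product and less of its RNA per cell cannot be told apart.

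The level of each product was placed among all genes above 0, as a description and under the reading of the values as length-scaled. The mean value of MUC13 lay above 83.8% of those genes and that of TFF3 above 67.6%. TFF1 followed at 39.8%, TFF2 at 26.1% and MUC5AC at 22.1%, whereas MUC1 lay above 7.91%. The values of MUC13 and TFF3 did not overlap in any library. TFF2 and MUC5AC overlapped in both conditions, and TFF1 and TFF2 had the same values, 1 and 2, in the APC shRNA libraries.

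Genes known to work with these products were compared through 7 lists of 126 genes in all, of which 59 were listed at 0 in every library. Of the 67 others, 29 (43.3%) had both APC shRNA values below both NonS values and 11 (16.4%) had both above. Over all genes above 0 the shares were 19.1% and 25.9%. Among the 23 list genes that could be tested, 5 were called lower (21.7%) and 0 higher. Over all 5376 genes tested, 3.70% were called lower and 4.33% higher. The median log2(value + 1) difference of the 23 genes was -0.72, against 0.03 over all genes tested. The lists were drawn up with earlier results of these data known, so these counts are a description and no independent evidence of a direction. The 5 genes called lower were AGR2, GALNT12, ANXA10, CA12 and LGALS4. Their adjusted p-values by limma lay between 0.0423 and 0.0483, close under the threshold of 0.05. A fit without any one library leaves a single library in a condition, too few to check these calls.

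Among goblet secretory products, AGR2, a protein disulfide isomerase of the endoplasmic reticulum needed for mucin assembly, was the gene with the highest mean. AGR2 had NonS values of 167 and 140 and APC shRNA values of 48 and 35. It fell by 1.87 on the log2(value + 1) scale (standard error 0.21, limma adjusted p = 0.0465), a ratio of NonS to APC shRNA of 3.7. In the wider fit it lost its call (limma adjusted p = 0.0606). The list had 5 genes tested, of which 1 was called lower and 4 were not called, with a median difference of -0.93. Over all 5376 genes tested, 3.70% were called lower and 4.33% higher. Of the 14 list genes above 0, 8 had both APC shRNA values below both NonS values and 2 had both above. The shares over all genes above 0 were 19.1% and 25.9%. Another 6 genes of the list, among them the goblet granule products CLCA1 and ZG16, were listed at 0 throughout.

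Other goblet genes are named here after their values were seen. SPINK4, a protease inhibitor secreted by goblet cells, had NonS values of 22 and 13 and APC shRNA values of 4 and 2, a difference of -2.21 that did not pass the test (limma adjusted p = 0.0709). REG4, a secreted lectin-like protein, was listed at 9 and 9 against 2 and 1, and AGR3, a relative of AGR2, at 6 and 5 against 2 and 1. SPINK1, a trypsin inhibitor, went the other way at 15 and 24 against 29 and 35, a difference of 0.72 that did not pass the test either (limma adjusted p = 0.19). WFDC2 overlapped between conditions at 3 and 7 against 5 and 11. The list thus held genes with values on either side.

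The enzymes of mucin-type O-glycosylation attach the first N-acetylgalactosamine to serine or threonine (the GALNT family) and then extend and cap the glycan. GALNT12, one of the initiating enzymes, had NonS values of 17 and 19 and an APC shRNA value of 7 in both replicates. It fell by 1.25 on the log2(value + 1) scale (standard error 0.08, limma adjusted p = 0.0423). The tied APC shRNA values, rounded to 7, help to make that standard error small. With at least 10 required in every library, GALNT12 was not tested. GCNT3, which branches mucin glycans and had the highest mean of the list, was listed at 130 and 165 against 54 and 64, a difference of -1.30 just short of the threshold (limma adjusted p = 0.0503). In this list 1 of 7 genes tested was called lower and 0 higher, with a median difference of -0.72. Over all 5376 genes tested, 3.70% were called lower and 4.33% higher. Of 20 list genes above 0, 8 had both APC shRNA values below both NonS values and 2 had both above. The shares over all genes above 0 were 19.1% and 25.9%. GALNT3 was among the 8, at 18 and 13 against 4 and 3, and GALNT6 among the 2, at 1 and 2 against 5 and 7. Both were picked after their values were seen. The initiating enzymes therefore did not share a single direction in the listed values.

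Of 13 other mucins, 10 were listed at 0 in every library, the gel-forming MUC5B and MUC6 and the transmembrane MUC4, MUC12 and MUC17 among them. CD164, a small membrane sialomucin with the highest mean of this list, had NonS values of 90 and 50 and APC shRNA values of 33 and 37. MUC20 was listed at 13 and 20 against 22 and 27. Of the 2 genes tested (CD164 and MUC20) 0 were called, with limma adjusted p-values of 0.175 and 0.23.

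Of 8 gastric mucous products, 5 were listed at 0 throughout, including the gastrokines GKN1 and GKN2. The 1 gene tested, ANXA10, an annexin of gastric epithelium, had NonS values of 57 and 47 and APC shRNA values of 8 and 4. It fell by 2.98 on the log2(value + 1) scale (standard error 0.36, limma adjusted p = 0.0483), a ratio of NonS to APC shRNA of 8.67. In the wider fit it lost its call (limma adjusted p = 0.07). With at least 10 required in every library it was not tested. Among the 23 list genes tested this was the difference of greatest size.

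Of 20 further enteroendocrine products, 16 were listed at 0 in every library, including CHGB, GCG, PYY and SST, as was CHGA. QPCT, an enzyme that modifies the amino terminus of peptide hormones and is also made outside endocrine cells, had the highest mean of the list. It had NonS values of 33 and 43 and APC shRNA values of 30 and 50, with no separation between conditions.

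The brush border and lipid-handling list had 14 of 24 genes at 0, among them FABP2, ALPI, SI, LCT and APOA4, as were ANPEP and, in 3 libraries, FABP1. Of 10 genes above 0, 6 had both APC shRNA values below both NonS values and 2 had both above. The shares over all genes above 0 were 19.1% and 25.9%. EZR, encoding ezrin, a linker of microvillar actin to the membrane, had the highest mean. It had NonS values of 157 and 190 and APC shRNA values of 107 and 115, a difference of -0.63 that did not pass the test (limma adjusted p = 0.0775). By contrast VIL1, the microvillar actin bundler villin, was listed at 29 and 31 against 39 and 35 and did not pass either (limma adjusted p = 0.123). VIL1 was picked after its values were seen.

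In the colonocyte list, 2 of 4 genes tested were called lower and 0 higher, although neither is an ion channel. Over all 5376 genes tested, 3.70% were called lower and 4.33% higher. Of the 13 list genes above 0, 4 had both APC shRNA values below both NonS values and 3 had both above. The shares over all genes above 0 were 19.1% and 25.9%. LGALS4, an intestinal galectin, had NonS values of 557 and 646 and APC shRNA values of 175 and 147. It fell by 1.90 on the log2(value + 1) scale (standard error 0.14, limma adjusted p = 0.0423). CA12, a membrane carbonic anhydrase, was listed at 23 and 24 against 6 and 5 and fell by 1.92 (standard error 0.11, limma adjusted p = 0.0423). With at least 10 required in every library, CA12 was not tested. KRT20, a keratin of differentiated colonocytes, was picked after its values were seen and did not separate the conditions, at 180 and 266 against 195 and 247. The chloride exchanger SLC26A3 and the water channel AQP8 were listed at 0 in every library.

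**Figure D1:**
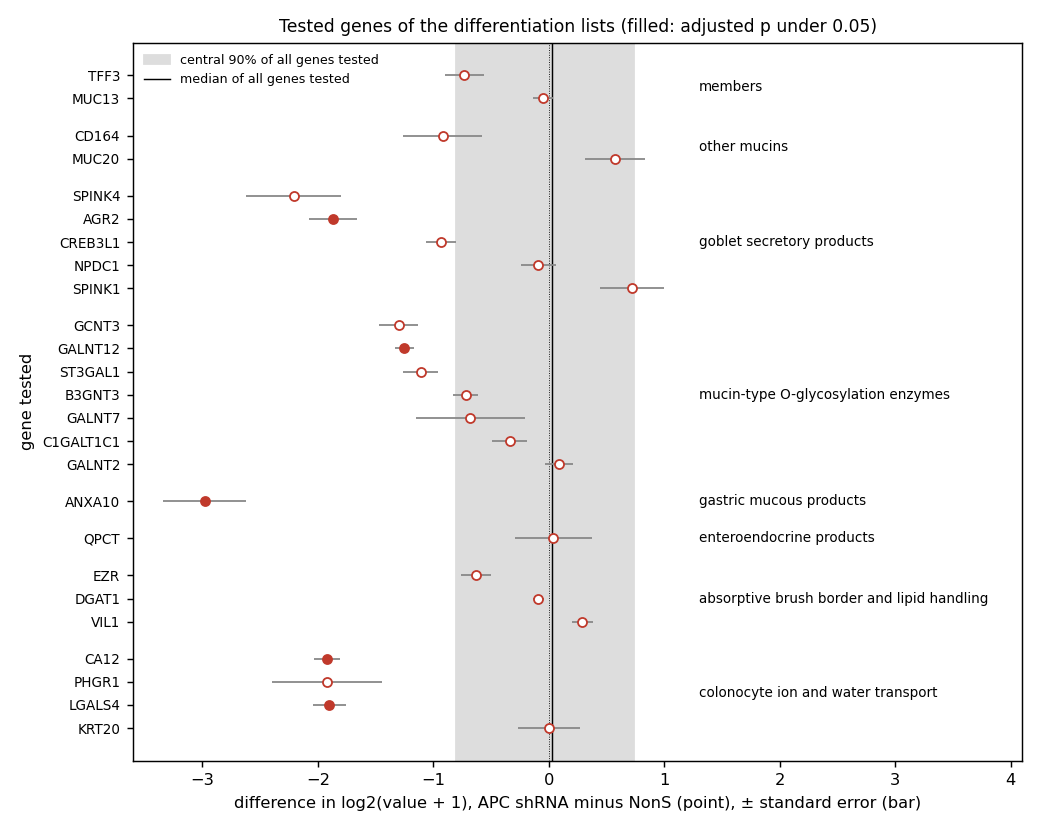
Difference in log2(value + 1) between APC shRNA and NonS libraries (horizontal axis; negative means lower in APC shRNA) for each tested gene of the set and of the 7 lists (vertical axis), with bars of 1 standard error; filled points were called at an adjusted p under 0.05. The 5 filled points (AGR2, GALNT12, ANXA10, CA12 and LGALS4) lie between -2.98 and -1.25, left of the grey band that spans the central 90% of all genes tested (-0.80 to 0.74), and TFF3 (-0.73) lies just inside it.

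**Figure D2:**
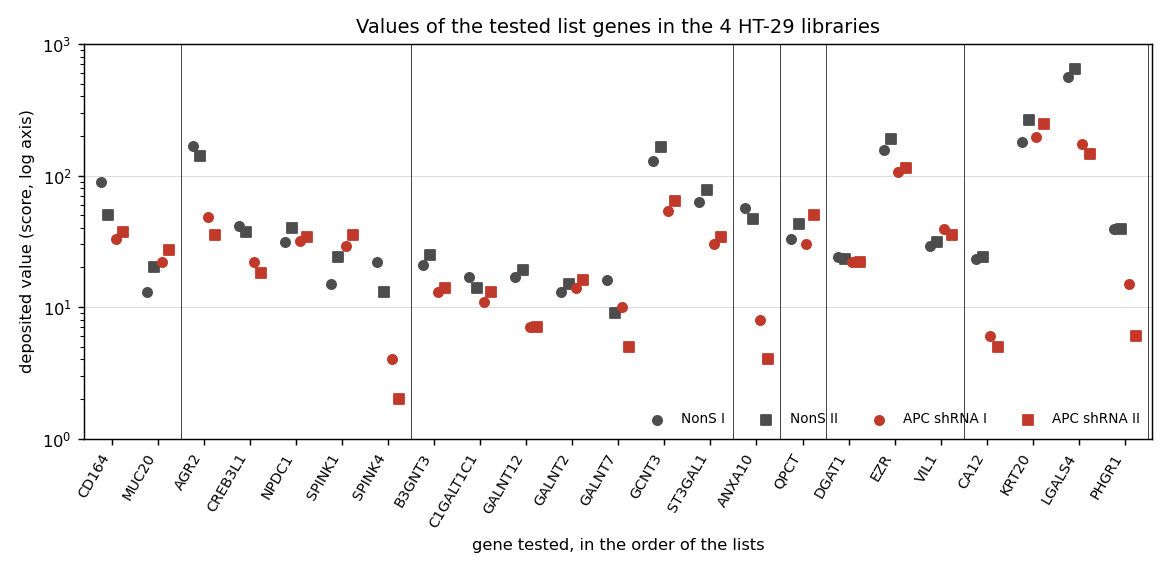
Deposited value (vertical axis, score, log scale) of the 23 tested list genes (horizontal axis, lists separated by vertical lines) in each library; grey points are NonS, red points APC shRNA, circles replicate I and squares replicate II. The red points lie well below the grey ones for AGR2, ANXA10, CA12 and LGALS4, while KRT20, QPCT and NPDC1 overlap.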

How the data were processed

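RNA-seq gave 4 libraries of HT-29 cells, grouped by their titles into APC shRNA and NonS. Per the study's methods, polyadenylated RNA was sequenced as single 50-base reads on an Illumina instrument. The authors removed low-quality bases, trimmed polyA, mapped with TopHat2 to human assembly GRCh38 and ran htseq-count on the GENCODE v29 gene models. The submitters' processing notes list bcl2fastq 2.19.0.316, DESeq2 1.4.1 and the build hg19. Coordinates here follow GENCODE v29 (GRCh38), which holds 19502 of the 19729 gene identifiers. The strand option of the counting is not given in the sources used here.

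The deposited values are whole numbers, treated as a score. This rests on the values: replicates of low genes varied by 0.484 (NonS, 4632 genes) and 0.363 (APC shRNA, 4531 genes) times the Poisson variance, less than read counts would, and value times longest-transcript length in kb summed to 980841 to 984873 per library. No count model was therefore run, and the precision of low values is limited by rounding. A deposited table of the authors' own comparison (a mean, fold changes and p-values) was not used. Left-out columns of per-sample values numbered 0.

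Conditions were compared on log2(value + 1) by limma 3.58.1 (R 4.3.3; mean-variance trend, two-sided, no covariate). The 5376 genes averaging 10 or more were tested, and p-values were adjusted over all of them by Benjamini-Hochberg. Genes with an adjusted p under 0.05 were called, with the difference given as APC shRNA minus NonS. Exact permutation tests used scipy 1.17.1. The limma step was tested on simulated data. Named genes are every member, the genes called in each list (at most 4), the gene of highest mean in each list, and APC. Any other gene named, including examples of genes listed at 0 and of markers, was picked after its values were seen. The members and lists were chosen with earlier results of these data known. Alternatives covered scaling, pseudocount, filters, variance model, GC content, call threshold, replicate block and leaving out each library. MUC2 was not analysed here.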

Additional observations from a re-analysis of the deposited data

How the results depend on the processing

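Counts of genes called stayed close to those reported with a pseudocount of 0.1 or 5 and with no mean-variance trend (227 to 237 higher, 196 to 204 lower, 5 list genes), and moved by over 1.5 times under most other alternatives. The exceptions were genes called higher under the 3 scalings (310 to 343) and genes called lower with at least 10 in every library (134). Genes called higher numbered 233, and 952 with every gene of total at least 1, 139 with at least 10 in every library, 368 with robust moderation and 446 with a GC content correction. Genes called lower numbered 199, and 305 with median-of-ratios scaling, 349 with upper-quartile scaling, 369 with equal library totals, 515 with every gene of total at least 1, 352 with robust moderation and 469 with the GC correction. At an adjusted p under 0.01, with or without a fold change over 4, both counts were 0. Fits without any one library leave a single library in a condition, too few for calls, and are given as differences only. List genes called numbered 5, and 10, 11 and 11 under the same 3 scalings, 11 with robust moderation and 12 with the GC correction. Under the same 2 filters they numbered 8 and 2. AGR2 and ANXA10 lost their calls in the first, and ANXA10, GALNT12 and CA12 were not tested in the second. The first filter also admits genes whose low rounded values tie, such as BEST4 at 0 and 0 in NonS against 1 and 1 in APC shRNA libraries.

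With the replicate block, 523 genes were called higher, 500 lower and 11 list genes, and with the block and the GC correction 1212, 1262 and 17. TFF3 was then the 1 member called lower, against 0 as reported (difference -0.82, adjusted p = 0.00569). The sources used here do not say that the numbers I and II mark a shared run. The II minus I differences of the conditions correlated at r = 0.724 over 5376 genes. The conditions thus shared part of their replicate difference, but there are only 2 pairs.

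The difference of MUC13 (-0.05; -0.12 to 0.02 without 1 library) reversed to 0.02 without NonS II, 0.02 without APC shRNA II, 0.04 with the GC correction and 0.04 with the block and that correction. TFF3 stayed negative, from -0.92 to -0.55 without 1 library and from -0.82 to -0.57 otherwise. With every library kept, its limma adjusted p-values ran from 0.00569 to 0.16. TFF1 (-2.44 to -1.03), TFF2 (-1.39 to -0.46) and MUC5AC (-1.70 to -0.50) stayed negative too under the alternatives that kept every library. The cause was not tested. Read depth is unknown, and rounding limits values under 10.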

Other observations

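The genes around the trefoil factor and MUC5AC loci were read in the same libraries, as values without a test. Within 150 kb of the trefoil factor genes on chromosome 21, 8 genes had values and 6 were above 0. RSPH1, a gene of motile cilia, was listed at 5 and 6 in NonS and 3 and 3 in APC shRNA libraries. SLC37A1, a sugar-phosphate transporter of the endoplasmic reticulum, was listed at 17 and 18 against 14 and 14. Both RSPH1 and SLC37A1 had lower values in the APC shRNA libraries, as TFF1, TFF2 and TFF3 did. Of all 12799 genes above 0, 19.1% lay below in this way, and a shared cause was not tested. ABCG1, a cholesterol exporter beside TFF3, was listed at 2 and 16 in NonS and 2 and 14 in APC shRNA libraries: it differed between replicates I and II and not between conditions. TMPRSS3 and UBASH3A were listed at 0.

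Within 150 kb of MUC5AC on chromosome 11, AP2A2, a subunit of the endocytic AP-2 adaptor, was listed at 18 and 20 in NonS and 19 and 20 in APC shRNA libraries. TOLLIP, an adaptor of Toll-like receptor signaling, was listed at 20 and 22 against 23 and 24. The values of these neighbours of MUC5AC were thus not lower in the APC shRNA libraries, and the neighbouring mucins MUC6 and MUC5B were listed at 0.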
